A study of Mus musculus with 14 samples.

Results

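The collagens are the triple-helical proteins of the extracellular matrix, and 40 of their genes were followed here in RNA from whole mouse kidneys. The members were all genes present in both deposited tables whose symbol is Col, a number, the letter a and a number. The glomerular type IV chains Col4a3, Col4a4 and Col4a5 were left out, which gave 40 of 23682 genes. By class, 11 members encode fibrillar chains, 6 network chains, 6 beaded filament chains and 8 FACIT chains (fibril-associated collagens with interrupted triple helices). The other members are 1 anchoring fibril chain, 4 transmembrane collagens, 2 multiplexins and 2 collagens outside these classes.

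The libraries came from 3 groups of mice, all given doxycycline in the drinking water. The 4 control mice carried the actin-rtTA transgene alone (actin-rtTA+) and were on doxycycline for 30 days; no injection is named for them. The other mice were i-TERTci (actin-rtTA+;TetOp-TERTci+), heterozygous for each transgene, in which doxycycline switches on TERTci in all tissues. At about 15 days, when protein in their urine had passed 10 mg/mL, these mice began daily intraperitoneal injections of either the DMSO vehicle (5 mice, 29 to 38 days on doxycycline) or the WIP1 phosphatase inhibitor GSK2830371 (5 mice, 28 to 49 days). The series is titled as a study of experimental collapsing glomerulopathy, a disease of the kidney filter, and asks what changes in the i-TERTci kidney and what the inhibitor changes there. Adult mice are named, with no age, sex or litter, and the samples are numbered within each group, so the p-values below measure the spread between these samples.

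As background, a collagen molecule is a trimer of alpha chains, and most chains work only with fixed partners. Fibrillar chains are cut free of their propeptides outside the cell and pack into cross-banded fibrils, which FACIT chains coat. Network chains join into sheets: type IV in basement membranes and type VIII as a short-chain lattice around vessels. Type VI forms beaded filaments close to cells. In the kidney, type IV, type XV and type XVIII belong to the basement membranes of tubules, vessels and glomeruli, while types I, III, V and VI belong to the interstitium and vessel walls, where they accumulate in fibrosis.

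All values below are normalised reads: whole reads per gene divided by 1 size factor per library. Control libraries held 48.5 to 64.6 M reads (M, 1e6 reads), DMSO libraries 47.2 to 48.9 M and GSK2830371 libraries 48.4 to 49.4 M. Mitochondrial genes took 14.4% to 24.2%, 4.95% to 9.52% and 5.07% to 8.35% of those reads. Normalised reads of Tert, which check the labels, were 117 to 183 in the controls, 574 to 2732 in the DMSO group and 231 to 2546 in the GSK2830371 group. Xist, the RNA of the inactive X chromosome in females, marked all 4 controls but 2 of 5 DMSO libraries and 3 of 5 GSK2830371 libraries, and the Y-linked Ddx3y marked the others. Sex, days on doxycycline and group are therefore partly mixed, and results were also computed in Xist-positive libraries alone and in libraries of 31 days or fewer. In the GSK2830371 group sex and days cannot be separated: the 3 Xist-positive libraries (replicates 2, 3 and 4) were all at 49 days. Replicates 1 and 5, at 31 and 28 days, were Xist-negative. At 31 days or fewer, only these stood for that group, against 4 Xist-positive controls. The collagen members together took 0.139% to 0.192% of all reads, mitochondrial ones included, in the controls. They took 0.206% to 0.789% in the DMSO group and 0.250% to 0.669% in the GSK2830371 group, above every control. Their summed normalised reads did overlap. These were 67644 to 124423 in the controls, 118994 to 353280 in the DMSO group and 120708 to 319840 in the GSK2830371 group. By this sum, DMSO replicate 1 and GSK2830371 replicate 3 lay within the control range. In whole kidney, more cells of a type and more RNA per cell cannot be told apart.

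Counted per kilobase of exon over the 14 libraries, the most abundant members were Col4a1 with 5205 mean normalised reads per kb, Col18a1 with 4482, Col4a2 with 3702, Col1a1 with 2315 and Col1a2 with 1707. Col6a1 (939), Col3a1 (914), Col14a1 (532) and Col15a1 (387) followed. When the longest transcript replaced all exons as the length, Col1a2 moved from rank 5 to rank 3 and Col15a1 from 9 to 11. Of the 40 members, 35 had enough reads to be tested. Col2a1, Col9a2, Col10a1, Col22a1 and Col25a1 did not, and are given by value only.

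Against control, 8 of the 35 tested members rose and 5 fell in the DMSO group, by a limma test on log2(normalised reads + 1) with Benjamini-Hochberg adjustment over all genes and a threshold of 0.05. Over all 18810 genes tested in that comparison, 25.2% rose and 23.1% fell, 48.3% in all, so the members' share called, 37.1%, was no larger than the background. In the GSK2830371 group 11 members rose and 5 fell, 45.7% of the 35, where 24.3% of all genes rose and 22.1% fell, 46.3% in all. The median log2 change over the tested members was 0.55 in the DMSO group and 1.0 in the GSK2830371 group, and over all genes tested it was 0.03 and 0.01. Every library of one group lay outside the range of the controls for 9 of 35 members in the DMSO group and for 14 of 35 in the GSK2830371 group, beside 38.8% and 40.3% of all genes. Among Xist-positive libraries alone, 13 members rose and 4 fell in the DMSO group and 8 rose and 5 fell in the GSK2830371 group, and at 31 days or fewer 11 rose and 3 fell in each. With scaling by total reads outside mitochondrial genes, 8 rose and 3 fell in the DMSO group. Both comparisons use the same 4 controls, so they are not independent of each other. Between GSK2830371 and DMSO no member passed, and neither did any gene (0.0% of 18810).

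**Figure D1:**
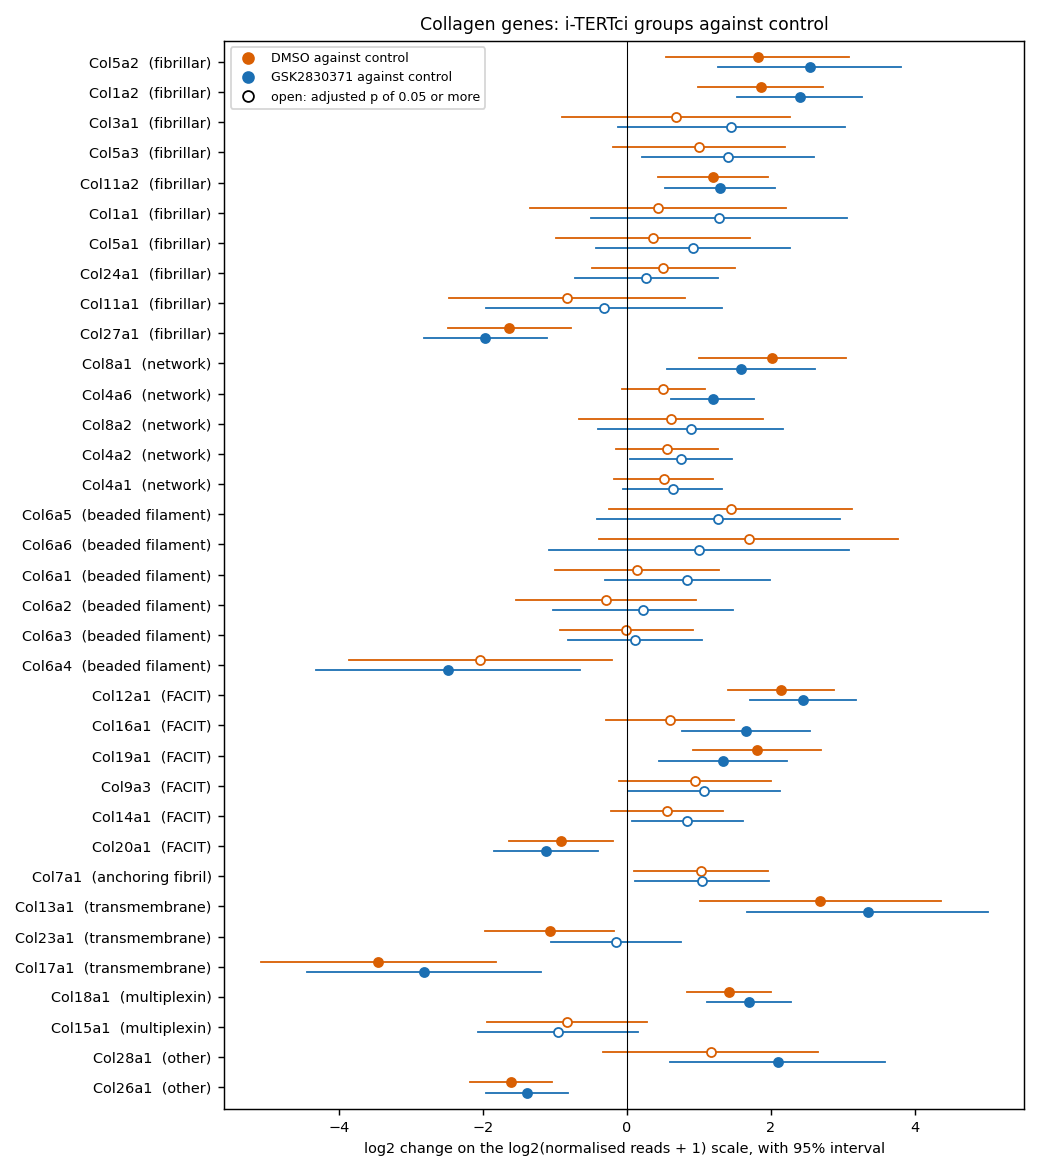
Log2 change of each of the 35 tested collagen genes against control (x axis, log2(normalised reads + 1) scale), for the DMSO group (orange) and the GSK2830371 group (blue), with 95% intervals from limma; filled points passed an adjusted p of 0.05. Col13a1 (2.68 and 3.34) lies farthest to the right and Col17a1 (-3.46 and -2.82) farthest to the left.

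Of the 10 fibrillar members tested, 3 rose and 1 fell in each comparison with control. The risers were Col1a2, Col5a2 and Col11a2, and Col27a1 fell, while the main chains of types I and III, Col1a1 and Col3a1, did not pass. Col1a2 (chr6:4504814-4541544, plus strand; all coordinates are on GRCm38), which encodes the second chain of type I collagen, had 7181, 6919.8, 3592 and 5309 normalised reads in control replicates 1 to 4, 16021, 51831, 22959, 9182 and 18499 in DMSO replicates 1 to 5 and 28542, 48558, 17856, 23145 and 37333 in GSK2830371 replicates 1 to 5. Both i-TERTci groups lay wholly above the controls, with DMSO replicate 2 and GSK2830371 replicate 2 highest. Its log2 change was 1.85 ± 0.41 (SE, adjusted p = 0.0018) in the DMSO group (3.61-fold) and 2.40 ± 0.41 (SE, adjusted p = 3.0e-04) in the GSK2830371 group (5.27-fold).

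Col1a1 (chr11:94936224-94953042, plus strand), the first chain of type I collagen, had 12827, 9689, 2291 and 7449 normalised reads in control replicates 1 to 4, 3290.1, 47840.3, 13629.7, 2679 and 11120.1 in DMSO replicates 1 to 5 and 16462, 37324, 4752, 14269.6 and 29044 in GSK2830371 replicates 1 to 5. The groups overlapped, and the DMSO values ran from close to the lowest control up to the highest value of all 14 libraries. Col1a1 had a log2 change of 0.43 ± 0.83 (SE, adjusted p = 0.69) against control in the DMSO group and 1.28 ± 0.83 (SE, adjusted p = 0.22) in the GSK2830371 group. Without control replicate 3 or without DMSO replicate 2 the DMSO value turned to -0.09 with an adjusted p of 0.93 or -0.17 with an adjusted p of 0.87. Col3a1, the chain of type III collagen, which is spun into the same fibrils, had log2 changes of 0.68 ± 0.73 (SE, adjusted p = 0.47) and 1.45 ± 0.73 (SE, adjusted p = 0.12). Its values were 2205 to 5093 in the controls, 1958 to 25681 in the DMSO group and 2905 to 17883 in the GSK2830371 group. The second change of Col3a1 passed the threshold with DESeq2, at 1.60 with an adjusted p of 0.039. It also passed with only the groups compared, at 1.45 with an adjusted p of 0.039. Without GSK2830371 replicate 3 it passed at 1.91 with an adjusted p of 0.038.

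Type V collagen sits at the core of type I fibrils and sets their width. Col5a2 (chr1:45374321-45503282, minus strand) had 409, 506, 298 and 388 normalised reads in control replicates 1 to 4, 449, 5104, 2051, 818 and 1331 in DMSO replicates 1 to 5 and 2274, 4385, 909, 1868 and 3707 in GSK2830371 replicates 1 to 5. All 5 GSK2830371 libraries lay above every control, while DMSO replicate 1 fell within the control range. The log2 change was 1.81 ± 0.59 (SE, adjusted p = 0.022) in the DMSO group and 2.54 ± 0.59 (SE, adjusted p = 0.0034) in the GSK2830371 group. Its partner Col5a1 did not pass, at 0.36 ± 0.63 (SE, adjusted p = 0.66) and 0.92 ± 0.63 (SE, adjusted p = 0.25), and its DMSO value turned to -0.13 with an adjusted p of 0.86 without DMSO replicate 2. The third chain, Col5a3, was at 1.0 ± 0.56 (SE, adjusted p = 0.15) and 1.41 ± 0.56 (SE, adjusted p = 0.052). The second value passed with edgeR, at 1.60 with an adjusted p of 0.026, and with DESeq2, at 1.59 with an adjusted p of 0.0052. It also passed without control replicate 1, at 1.67 with an adjusted p of 0.043, or GSK2830371 replicate 3, at 1.92 with an adjusted p of 0.0023. At 31 days or fewer both Col5a3 values passed, at 1.18 with an adjusted p of 0.041 and 1.76 with an adjusted p of 0.021.

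Among the chains best known from cartilage, Col11a2 (chr17:34039437-34066685, plus strand), a type XI chain, had 34.1, 30.6, 22.1 and 16.5 normalised reads in control replicates 1 to 4, 36.3, 65.1, 53.8, 77.2 and 67.1 in DMSO replicates 1 to 5 and 40.6, 104, 37.5, 80.5 and 74.3 in GSK2830371 replicates 1 to 5. Every i-TERTci library was above every control, at a level far below that of the type I chains. For Col11a2 the log2 change was 1.19 ± 0.36 (SE, adjusted p = 0.013) and 1.29 ± 0.36 (SE, adjusted p = 0.0085); among libraries of 31 days or fewer the second was 1.11 with an adjusted p of 0.065, and over all alternatives its adjusted p ran from 9.6e-04 to 0.065. Its partner Col11a1 was at -0.84 ± 0.77 (SE, adjusted p = 0.39) and -0.32 ± 0.77 (SE, adjusted p = 0.76). Col24a1, a minor fibrillar chain, was at 0.50 ± 0.47 (SE, adjusted p = 0.39) and 0.27 ± 0.47 (SE, adjusted p = 0.66). Col2a1, the chain of cartilage fibrils, was too low to test, with at most 14.8 normalised reads in the controls, 5.50 in the DMSO group and 6.93 in the GSK2830371 group.

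Col27a1 (chr4:63214004-63334991, plus strand), a fibrillar chain of developing cartilage and several epithelia, was the one that fell. It had 8276, 8218, 6825 and 9907 normalised reads in control replicates 1 to 4, 5712, 2159.8, 2344, 1934 and 2355 in DMSO replicates 1 to 5 and 4051, 818, 2894, 2659 and 1626 in GSK2830371 replicates 1 to 5. No i-TERTci library reached the lowest control, and DMSO replicate 1 was the highest of the DMSO group. Col27a1 had a log2 change of -1.63 ± 0.40 (SE, adjusted p = 0.0038) in the DMSO group and -1.97 ± 0.40 (SE, adjusted p = 0.0012) in the GSK2830371 group. In the controls it was more abundant per kilobase of all exons (638 reads per kb) than Col1a2 (463), and in the GSK2830371 group the order was reversed (185 and 2502). All exons span 13022 bases for Col27a1 and 12426 for Col1a2, but the longest transcripts 7612 and 5348. The gap in the controls therefore depends on the length chosen and is smaller by longest transcript.

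To let a reader see what lies before a member that moved in each direction, the 250 bases before the RefSeq start site (GRCm38.p6) are printed for Col11a2, at chr17:34038888-34039137 on the plus strand, and for Col27a1, at chr4:63215162-63215411 on the plus strand. No annotated exon lies in either window. The RefSeq starts differ from the gene positions given above. The Col27a1 window lies inside the annotated gene, which begins at 63214004, and the annotated Col11a2 gene begins at 34039437, past the end of its window. Capitals mark 4 motifs searched on both strands: the CCAAT box, the GC box of Sp1-type factors (GGGCGG), the TATA-type string TATAAA and the site of AP-1 factors (TGANTCA). In the windows shown, no match overlaps another.
Col11a2: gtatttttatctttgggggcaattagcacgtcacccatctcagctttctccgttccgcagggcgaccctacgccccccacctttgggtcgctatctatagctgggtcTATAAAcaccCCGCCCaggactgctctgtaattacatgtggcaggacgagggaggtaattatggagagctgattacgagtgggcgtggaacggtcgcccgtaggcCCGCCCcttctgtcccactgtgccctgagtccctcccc
Col27a1: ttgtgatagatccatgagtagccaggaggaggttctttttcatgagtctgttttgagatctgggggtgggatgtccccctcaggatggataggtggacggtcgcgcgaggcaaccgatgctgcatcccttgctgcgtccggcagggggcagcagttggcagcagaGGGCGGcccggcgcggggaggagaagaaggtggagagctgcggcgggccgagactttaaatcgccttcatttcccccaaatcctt
Of the 40 members, 32 had a RefSeq window, and in 20 of these it holds GGGCGG, in 11 CCAAT, in 5 TATAAA and in 1 TGANTCA. Over all 32851 windows of the same length, GGGCGG stands in 32.7%, CCAAT in 33.8%, TATAAA in 12.4% and TGANTCA in 6.75%. A match is a string of letters in the window and was not measured as a binding site.

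**Figure D2:**
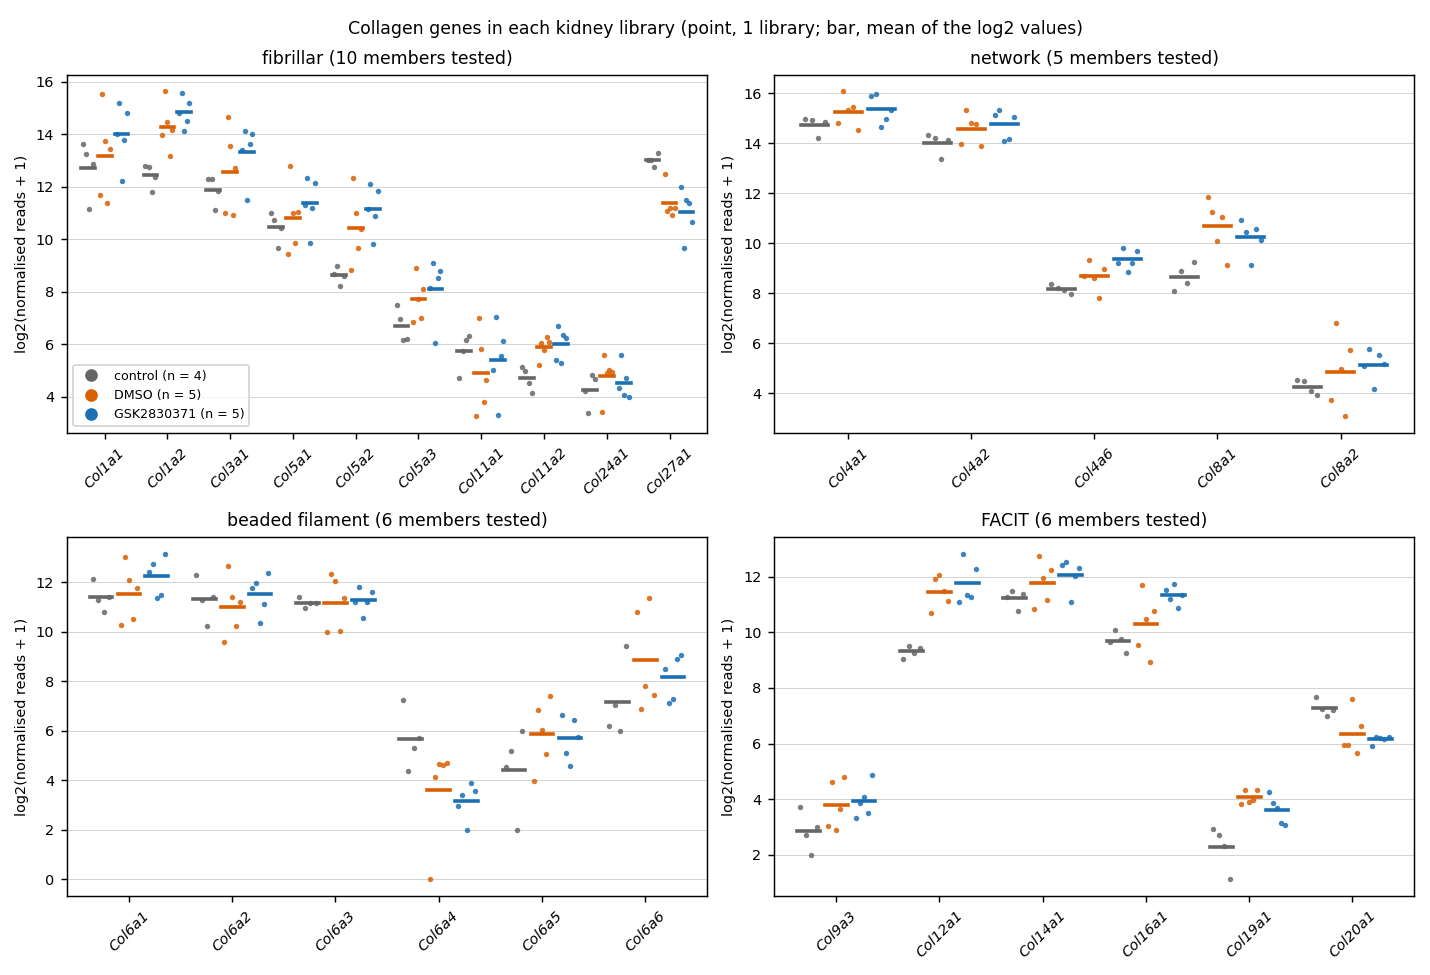
Log2(normalised reads + 1) of every tested member of the 4 main classes (y axis) in each library, by group (grey, control, n = 4; orange, DMSO, n = 5; blue, GSK2830371, n = 5); bars are means of the log2 values. Col1a2 and Col12a1 stand clear of the controls in both i-TERTci groups, Col27a1 stands below them, and the type VI chains Col6a1, Col6a2 and Col6a3 overlap.

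Of the 5 network members tested, Col8a1 rose in the DMSO group, and Col8a1 and Col4a6 rose in the GSK2830371 group. None fell. Col4a1 and Col4a2, the 2 chains of the ubiquitous basement membrane trimer, did not pass in either. Col4a1 (chr8:11198423-11312826, minus strand), the most abundant member, had 32078, 31035, 18809 and 29226 normalised reads in control replicates 1 to 4, 28863, 70061, 40695, 44275 and 23921 in DMSO replicates 1 to 5 and 60799, 65014, 26032, 31996 and 41108 in GSK2830371 replicates 1 to 5. The groups overlapped, with control replicate 3 the lowest library of all. Its log2 change was 0.51 ± 0.32 (SE, adjusted p = 0.21) and 0.64 ± 0.32 (SE, adjusted p = 0.12). Col4a2 (chr8:11312805-11449287, plus strand) was at 0.55 ± 0.33 (SE, adjusted p = 0.18) and 0.75 ± 0.33 (SE, adjusted p = 0.076); the second value passed with DESeq2, at 0.78 with an adjusted p of 0.041, and without GSK2830371 replicate 3, at 0.91 with an adjusted p of 0.038, or 4, at 0.90 with an adjusted p of 0.042.

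Col4a1 and Col4a2 lie head to head, and in the annotation their first exons share 22 bases. These are printed because reads over them belong to either gene, at chr8:11312805-11312826, plus strand of GRCm38.p6.
Col4a1 and Col4a2 shared start: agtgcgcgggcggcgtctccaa
The shared bases are 0.295% of the exon length of Col4a1 and 0.332% of that of Col4a2. The ratio of Col4a2 to Col4a1 was 0.557 to 0.640 in the controls, 0.563 to 0.713 in the DMSO group and 0.572 to 0.814 in the GSK2830371 group, a range of 1.46-fold over 14 libraries.

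Col4a6 (chrX:141165403-141474076, minus strand) encodes the type IV chain found with Col4a5 in Bowman's capsule and some tubular basement membranes. It had 332, 296, 279 and 248 normalised reads in control replicates 1 to 4, 409, 642, 392, 221 and 499 in DMSO replicates 1 to 5 and 597, 906, 461, 591 and 822 in GSK2830371 replicates 1 to 5. Every GSK2830371 library lay above the controls, whereas the DMSO group spread from below the lowest control to 642. The log2 change was 1.19 ± 0.27 (SE, adjusted p = 0.0023) in the GSK2830371 group and 0.51 ± 0.27 (SE, adjusted p = 0.13) in the DMSO group, where it passed without DMSO replicate 4, at 0.73 with an adjusted p of 0.017, among Xist-positive libraries, at 0.98 with an adjusted p of 0.019, and at 31 days or fewer, at 0.73 with an adjusted p of 0.014. The difference between the treated groups was 0.68 (95% interval 0.14 to 1.22, adjusted p = 0.99), and among Xist-positive libraries 0.15 with an adjusted p of 1.0. Those libraries also differ in days on doxycycline, 29 and 31 with DMSO against 49 with GSK2830371. Days and treatment cannot be told apart among them.

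Col8a1 (chr16:57624258-57754737, minus strand), a type VIII chain found in vessel walls and in Descemet's membrane, had 273, 475, 339 and 602 normalised reads in control replicates 1 to 4, 3666, 2449, 1088, 2108 and 565 in DMSO replicates 1 to 5 and 1942, 1387, 565, 1505 and 1124 in GSK2830371 replicates 1 to 5. DMSO replicate 5 and GSK2830371 replicate 3 lay within the control range and the other i-TERTci libraries above it. For Col8a1 the log2 change was 2.02 ± 0.48 (SE, adjusted p = 0.0033) and 1.58 ± 0.48 (SE, adjusted p = 0.015). Among Xist-positive libraries it was 1.54 with an adjusted p of 0.08 and 1.39 with an adjusted p of 0.064; over all alternatives the adjusted p ran from 3.6e-06 to 0.08 in the first and from 9.2e-04 to 0.064 in the second comparison. Its partner Col8a2 was at 0.61 ± 0.60 (SE, adjusted p = 0.42) and 0.88 ± 0.60 (SE, adjusted p = 0.24), and the first passed among Xist-positive libraries, at 2.02 with an adjusted p of 0.014. The window before the Col8a1 start, at chr16:57754738-57754987 on the minus strand, holds GGGCGG or its complement 4 times and no annotated exon, and is printed because it is the network member that passed in each comparison with control, with capitals as above.
Col8a1: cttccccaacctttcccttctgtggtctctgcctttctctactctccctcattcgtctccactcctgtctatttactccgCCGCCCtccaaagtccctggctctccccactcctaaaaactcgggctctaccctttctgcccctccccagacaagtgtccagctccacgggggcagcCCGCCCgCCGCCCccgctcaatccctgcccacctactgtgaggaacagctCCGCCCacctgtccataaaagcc
Col10a1, the chain of hypertrophic cartilage, had no read in any of the 4 controls, where 3 reads would be 2.78 to 3.53 normalised reads per library. In the DMSO group it had 0, 9.17, 0.93, 0 and 3.31 normalised reads and in the GSK2830371 group 5.64, 2.90, 1.97, 6.93 and 10.8, and no fold change is given for it.

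The endothelial marker list, named because type IV and type VIII chains are made there among other cells, moved in both directions. Of 11 markers tested, 2 rose and 4 fell in the DMSO group, and 3 rose and 3 fell in the GSK2830371 group. Over all genes tested, 25.2% rose and 23.1% fell in the first, and 24.3% and 22.1% in the second. Pecam1, a junction protein, had log2 changes of 0.45 ± 0.16 (SE, adjusted p = 0.029) and 0.67 ± 0.16 (SE, adjusted p = 0.0031), and Ehd3, a marker of the glomerular endothelium, of -1.29 ± 0.21 (SE, adjusted p = 1.8e-04) and -0.99 ± 0.21 (SE, adjusted p = 0.0015). The summed level of the list was 46909 to 68566 in the controls, 24639 to 57461 in the DMSO group and 38911 to 50878 in the GSK2830371 group. Its part in the network results was not tested.

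None of the 6 beaded filament members, all chains of type VI collagen, rose in either comparison, and Col6a4 fell in the GSK2830371 group. Col6a1 (chr10:76708792-76726168, minus strand), the most abundant of them and the first chain of the classic trimer, had 4483, 2500.2, 1763 and 2729 normalised reads in control replicates 1 to 4, 1226, 8414, 4394, 1478 and 3525 in DMSO replicates 1 to 5 and 5519, 6869, 2654, 2867 and 9175 in GSK2830371 replicates 1 to 5. The 3 groups overlapped, with DMSO replicates 1 and 4 below every control. Col6a1 had a log2 change of 0.14 ± 0.53 (SE, adjusted p = 0.85) and 0.84 ± 0.53 (SE, adjusted p = 0.21). The trimer's other chains did not pass: Col6a2 was at -0.29 ± 0.58 (SE, adjusted p = 0.7) and 0.22 ± 0.58 (SE, adjusted p = 0.78), and Col6a3 at -0.01 ± 0.43 (SE, adjusted p = 0.99) and 0.11 ± 0.43 (SE, adjusted p = 0.86). These 3 changed sign between alternatives in the DMSO comparison.

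Col6a4, Col6a5 and Col6a6 encode alternative chains that can take the place of Col6a3. Col6a4 (chr9:105989454-106096783, minus strand) had 153, 19.5, 38.1 and 50.6 normalised reads in control replicates 1 to 4, 0, 16.5, 24.1, 23.3 and 24.8 in DMSO replicates 1 to 5 and 6.76, 9.68, 2.96, 13.9 and 10.8 in GSK2830371 replicates 1 to 5. Control replicate 1 stood high, and every GSK2830371 library lay below the lowest control. The log2 change was -2.49 ± 0.86 (SE, adjusted p = 0.027) in the GSK2830371 group and -2.04 ± 0.86 (SE, adjusted p = 0.062) in the DMSO group. The first no longer passed without control replicate 1, at -1.95 with an adjusted p of 0.1, without control replicate 4, at -2.47 with an adjusted p of 0.056, without GSK2830371 replicate 1, at -2.44 with an adjusted p of 0.051, or without GSK2830371 replicate 3, at -2.19 with an adjusted p of 0.06. It was also lost at 31 days or fewer, at -2.39 with an adjusted p of 0.14, and with Xist status as a covariate, at -2.25 with an adjusted p of 0.068. Over all alternatives its adjusted p ran from 2.5e-04 to 0.14. The second passed with edgeR, at -1.85 with an adjusted p of 0.038, without control replicate 2, at -2.47 with an adjusted p of 0.046, or without DMSO replicate 5, at -2.31 with an adjusted p of 0.048.

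Col6a5 ranged from 3.01 to 63.6 normalised reads in the controls and was at 1.44 ± 0.79 (SE, adjusted p = 0.15) and 1.27 ± 0.79 (SE, adjusted p = 0.2). Col6a6 was at 1.69 ± 0.97 (SE, adjusted p = 0.17) and 1.0 ± 0.97 (SE, adjusted p = 0.42), with 1776 and 2629 normalised reads in DMSO replicates 1 and 4 and 117 to 222 in the other 3 DMSO libraries. These 2 libraries were the lowest of the DMSO group for Col6a1, Col6a2 and Col6a3. Without control replicate 4, the highest control at 682, the DMSO change of Col6a6 passed at 2.43 with an adjusted p of 0.049.

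Of the 6 FACIT members tested, Col12a1 and Col19a1 rose and Col20a1 fell in the DMSO group, and these and Col16a1, which rose, passed in the GSK2830371 group. Col14a1 (chr15:55307750-55520803, plus strand), the most abundant of the class, which coats type I fibrils, had 2464, 2887, 1748 and 2661 normalised reads in control replicates 1 to 4, 1819, 6851, 3992, 2279 and 4794 in DMSO replicates 1 to 5 and 5439, 5927, 2167, 4126 and 5040.4 in GSK2830371 replicates 1 to 5. The groups overlapped. For Col14a1 the log2 change was 0.55 ± 0.36 (SE, adjusted p = 0.22) and 0.84 ± 0.36 (SE, adjusted p = 0.07), and the second passed with DESeq2, at 0.89 with an adjusted p of 0.03, with only the groups compared, at 0.84 with an adjusted p of 0.023, without GSK2830371 replicate 3, at 1.08 with an adjusted p of 0.016, and at 31 days or fewer, at 1.13 with an adjusted p of 0.049. The first passed among Xist-positive libraries, at 1.26 with an adjusted p of 0.022.

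Col12a1 (chr9:79598991-79718831, minus strand), which coats type I fibrils in tissues under tension, had 519, 735, 617 and 693 normalised reads in control replicates 1 to 4, 1643, 3836, 4273, 2849.6 and 2244 in DMSO replicates 1 to 5 and 2167, 7271, 2591, 2452 and 4949 in GSK2830371 replicates 1 to 5. The lowest i-TERTci library, DMSO replicate 1, was above the highest control. Col12a1 had a log2 change of 2.14 ± 0.34 (SE, adjusted p = 1.7e-04) in the DMSO group (4.4-fold) and 2.44 ± 0.34 (SE, adjusted p = 6.9e-05) in the GSK2830371 group (5.44-fold). It had the smallest p of all members in both comparisons, and it passed under every alternative run.

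Col16a1 (chr4:130047840-130099283, plus strand), a FACIT chain of fibrils and of elastic microfibrils, had 805, 1091, 858 and 616 normalised reads in control replicates 1 to 4, 751, 3312, 1417, 485 and 1753 in DMSO replicates 1 to 5 and 2963, 2341, 3434, 1893 and 2569 in GSK2830371 replicates 1 to 5. All 5 GSK2830371 libraries exceeded the highest control, and the DMSO group straddled the controls. The log2 change was 1.65 ± 0.42 (SE, adjusted p = 0.0052) in the GSK2830371 group and 0.59 ± 0.42 (SE, adjusted p = 0.25) in the DMSO group. The latter passed without DMSO replicate 4, at 0.93 with an adjusted p of 0.039, and among Xist-positive libraries, at 1.54 with an adjusted p of 0.0046. The difference between the treated groups was 1.05 (95% interval 0.21 to 1.89, adjusted p = 0.99), and among Xist-positive libraries 0.04 with an adjusted p of 1.0. Among the latter, days on doxycycline differed with the treatment, as given for Col4a6.

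The other FACIT members were far lower. Col19a1 (chr1:24261890-24587472, minus strand), known from muscle and nerve, had 6.60, 5.57, 4.01 and 1.18 normalised reads in control replicates 1 to 4, 13.3, 19.3, 13.9, 14.8 and 19.0 in DMSO replicates 1 to 5 and 18.0, 13.5, 11.8, 7.79 and 7.51 in GSK2830371 replicates 1 to 5. Both i-TERTci groups lay above the controls at these low counts. For Col19a1 the log2 change was 1.80 ± 0.42 (SE, adjusted p = 0.0023) and 1.33 ± 0.42 (SE, adjusted p = 0.016). The second was lost without control replicate 4, at 0.95 with an adjusted p of 0.064, among Xist-positive libraries, at 1.29 with an adjusted p of 0.067, and at 31 days or fewer, at 1.40 with an adjusted p of 0.086, with adjusted p from 0.012 to 0.086 over all alternatives.

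Col20a1 (chr2:180986535-181018363, plus strand), a FACIT chain of uncertain role, had 203, 149, 125 and 148 normalised reads in control replicates 1 to 4, 60.5, 60.5, 194, 49.7 and 98.6 in DMSO replicates 1 to 5 and 59.7, 74.5, 73.0, 71.0 and 74.3 in GSK2830371 replicates 1 to 5. The GSK2830371 group lay below every control, and DMSO replicate 3 lay inside the control range. Col20a1 had a log2 change of -0.92 ± 0.34 (SE, adjusted p = 0.035) and -1.12 ± 0.34 (SE, adjusted p = 0.014), and the second missed the threshold at 31 days or fewer, at -1.20 with an adjusted p of 0.053, with adjusted p from 0.0019 to 0.053 over all alternatives. The first was lost under 12 of 23 alternatives, among them edgeR, at -0.75 with an adjusted p of 0.091, and leaving out control replicate 1 (-0.79 with an adjusted p of 0.1), 2 (-0.94 with an adjusted p of 0.066) or 4 (-0.94 with an adjusted p of 0.063), or DMSO replicate 1 (-0.82 with an adjusted p of 0.071), 2 (-0.82 with an adjusted p of 0.077) or 4 (-0.75 with an adjusted p of 0.082); over all of them the adjusted p ran from 0.0023 to 0.12. An annotated transcript on the same strand shares 79 of its exon bases, so its reads are uncertain.

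Col9a3, a type IX chain of cartilage fibrils, was at 0.94 ± 0.50 (SE, adjusted p = 0.13) and 1.07 ± 0.50 (SE, adjusted p = 0.091), and the first passed among Xist-positive libraries, at 1.85 with an adjusted p of 0.023. Tcfl5 on the opposite strand shares 6.07% of its exon bases, and the strand setting of the counting is not given in the sources used here. Col9a2 had at most 4.71, 8.34 and 4.84 normalised reads in the 3 groups, and Col22a1, of tissue junctions, at most 2.20, 15.7 and 7.89. Of the 10 genes listed as cartilage and bone markers, which were set beside the cartilage collagens, 2 could be tested, Comp and Sox9, and neither passed in any comparison. Sox9, a transcription factor of cartilage and of several epithelia, had the smallest p, with log2 changes of 1.42 ± 0.57 (SE, adjusted p = 0.0505) and 0.73 ± 0.57 (SE, adjusted p = 0.31). The summed level of the 5 measured genes was 91.3 to 289 in the controls, 169.8 to 692 in the DMSO group and 85.8 to 383 in the GSK2830371 group, and Sp7, which specifies bone, was under 10 in every library.

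Outside the 4 main classes, the largest changes belonged to transmembrane collagens. Col13a1 (chr10:61838236-61979108, minus strand), found at cell adhesions and neuromuscular junctions, had 72.6, 89.1, 73.2 and 65.9 normalised reads in control replicates 1 to 4, 2112, 351, 1381, 129 and 202 in DMSO replicates 1 to 5 and 1685, 1038, 1122, 184 and 734 in GSK2830371 replicates 1 to 5. Every i-TERTci library exceeded every control, and the DMSO values spread from 129 to 2112. The log2 change was 2.68 ± 0.78 (SE, adjusted p = 0.012) in the DMSO group (6.42-fold) and 3.34 ± 0.78 (SE, adjusted p = 0.0034) in the GSK2830371 group (10.1-fold). The first was lost with voom, at 2.64 with an adjusted p of 0.066, and with Xist status as a covariate, at 1.98 with an adjusted p of 0.087, and its adjusted p ran from 3.5e-05 to 0.087 over all alternatives. The window before its start, at chr10:61979109-61979358 on the minus strand with no annotated exon, is printed as that of the member with the largest rise, with capitals as above.
Col13a1: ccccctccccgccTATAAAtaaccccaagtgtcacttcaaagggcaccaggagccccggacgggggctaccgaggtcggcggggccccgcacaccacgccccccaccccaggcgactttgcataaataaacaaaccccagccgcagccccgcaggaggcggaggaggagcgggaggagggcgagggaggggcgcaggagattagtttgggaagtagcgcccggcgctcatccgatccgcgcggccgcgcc

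Col17a1 (chr19:47646344-47692094, minus strand), the hemidesmosome collagen of basal epithelial cells, fell in both comparisons. It had 691, 160.5, 213 and 531 normalised reads in control replicates 1 to 4, 32.6, 84.3, 35.2, 3.17 and 60.5 in DMSO replicates 1 to 5 and 117, 29.0, 19.7, 60.6 and 52.6 in GSK2830371 replicates 1 to 5. The highest i-TERTci library, GSK2830371 replicate 1, stayed below the lowest control. For Col17a1 the log2 change was -3.46 ± 0.77 (SE, adjusted p = 0.0019) in the DMSO group (11-fold lower) and -2.82 ± 0.77 (SE, adjusted p = 0.0077) in the GSK2830371 group (7.06-fold lower), and the first was -2.74 with an adjusted p of 0.0014 without DMSO replicate 4. Its adjusted p ran from 2.5e-06 to 0.019 in the first and from 3.4e-05 to 0.03 in the second comparison over all alternatives.

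Markers of the urothelium, the lining of the renal pelvis, moved beside Col17a1. Of 6 markers, 5 fell and 1 rose in each comparison, where 23.1% and 22.1% of all genes fell and 25.2% and 24.3% rose. Upk1a, a uroplakin, had log2 changes of -2.18 ± 0.45 (SE, adjusted p = 9.7e-04) and -1.83 ± 0.45 (SE, adjusted p = 0.0037), and the riser was Krt20, a keratin of urothelial surface cells, at 6.71 ± 0.99 (SE, adjusted p = 1.4e-04) and 5.70 ± 0.99 (SE, adjusted p = 5.0e-04). The summed level of the list was 1354 to 2431 in the controls, 1250 to 9892 in the DMSO group and 235 to 4438 in the GSK2830371 group, with Krt20 included. How much urothelium each kidney sample held, and its part in the result of Col17a1, was not tested.

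Col23a1 (chr11:51289920-51583918, plus strand), a transmembrane collagen of epithelia, had 267, 494, 386 and 429.6 normalised reads in control replicates 1 to 4, 59.2, 364, 179.8, 147 and 349 in DMSO replicates 1 to 5 and 302, 277, 476, 447 and 275 in GSK2830371 replicates 1 to 5. The DMSO group reached from far below the controls into their range. For Col23a1 the log2 change was -1.07 ± 0.42 (SE, adjusted p = 0.047) in the DMSO group and -0.16 ± 0.42 (SE, adjusted p = 0.78) in the GSK2830371 group. The difference between the treated groups was 0.92 (95% interval 0.07 to 1.77, adjusted p = 0.99) and 0.13 with an adjusted p of 1.0 among Xist-positive libraries. Days on doxycycline differed with the treatment among these, as given for Col4a6. The DMSO call was lost under 14 of 23 alternatives, with adjusted p from 0.017 to 0.79 over all of them. Its value was -0.95 with an adjusted p of 0.12 without control replicate 2, -1.07 with an adjusted p of 0.082 without control replicate 3, -1.02 with an adjusted p of 0.1 without control replicate 4, -0.67 with an adjusted p of 0.092 without DMSO replicate 1, -1.07 with an adjusted p of 0.073 without DMSO replicate 3, -1.0 with an adjusted p of 0.087 without DMSO replicate 4 and -0.11 with an adjusted p of 0.79 among Xist-positive libraries. Col25a1, a transmembrane collagen of neurons, had at most 12.1, 7.40 and 10.0 normalised reads in the 3 groups.

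Of the multiplexins, basement membrane collagens that carry sugar chains, Col18a1 rose and Col15a1 did not pass. Col18a1 (chr10:77052178-77166548, minus strand), whose end fragment is endostatin, had 13203, 14654, 9459.6 and 13752 normalised reads in control replicates 1 to 4, 28990.3, 58532, 34575, 26004 and 28216 in DMSO replicates 1 to 5 and 52505, 62169, 29101, 28679 and 40673 in GSK2830371 replicates 1 to 5. No i-TERTci library came down to the controls. Col18a1 had a log2 change of 1.42 ± 0.28 (SE, adjusted p = 6.6e-04) in the DMSO group (2.67-fold) and 1.69 ± 0.28 (SE, adjusted p = 1.8e-04) in the GSK2830371 group (3.23-fold), and it passed under every alternative run. Per kilobase it was below Col4a1 in the controls (1818 against 3723 reads per kb) and near it in the GSK2830371 group (6071 against 6028). Col15a1 was at -0.84 ± 0.52 (SE, adjusted p = 0.2) and -0.95 ± 0.52 (SE, adjusted p = 0.15), with 1975 to 4094 normalised reads in the controls, 813 to 4374 in the DMSO group and 526 to 3462 in the GSK2830371 group.

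Col7a1 (chr9:108953586-108984875, plus strand), the anchoring fibril chain that ties basement membrane to stroma, had 167, 121, 134 and 105 normalised reads in control replicates 1 to 4, 139, 556, 361, 189 and 251 in DMSO replicates 1 to 5 and 279.5, 253, 136, 197 and 728 in GSK2830371 replicates 1 to 5. All 3 groups overlapped, with GSK2830371 replicate 5 highest. For Col7a1 the log2 change was 1.03 ± 0.44 (SE, adjusted p = 0.063) and 1.04 ± 0.44 (SE, adjusted p = 0.062), just short of the threshold. With edgeR both passed, at 1.19 with an adjusted p of 0.049 and 1.28 with an adjusted p of 0.037, and so did the first without DMSO replicate 1, at 1.26 with an adjusted p of 0.027, and the second without GSK2830371 replicate 3, at 1.28 with an adjusted p of 0.025. At 31 days or fewer they were 1.15 with an adjusted p of 0.038 and 1.79 with an adjusted p of 0.016, and among Xist-positive libraries the first was 1.52 with an adjusted p of 0.01.

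Col26a1 (chr5:136741759-136883209, minus strand), a short collagen first described in testis and ovary, had 613, 513, 524 and 513 normalised reads in control replicates 1 to 4, 162, 269.5, 119.6, 134 and 238 in DMSO replicates 1 to 5 and 184, 167, 250.4, 157 and 299.6 in GSK2830371 replicates 1 to 5. The 4 controls lay close together and well above all 10 i-TERTci libraries. Col26a1 had a log2 change of -1.61 ± 0.27 (SE, adjusted p = 1.9e-04) in the DMSO group (3.06-fold lower) and -1.39 ± 0.27 (SE, adjusted p = 6.6e-04) in the GSK2830371 group (2.62-fold lower), and both passed under every alternative run. Col28a1 (chr6:7997808-8192617, minus strand), a beaded chain related to type VI and known from peripheral nerve, had 0, 4.64, 12.0 and 7.06 normalised reads in control replicates 1 to 4, 6.05, 19.3, 6.49, 5.28 and 23.2 in DMSO replicates 1 to 5 and 12.4, 33.9, 7.89, 22.5 and 40.9 in GSK2830371 replicates 1 to 5. The GSK2830371 group overlapped the controls at GSK2830371 replicate 3. Its log2 change was 2.09 ± 0.71 (SE, adjusted p = 0.024) in the GSK2830371 group and 1.16 ± 0.71 (SE, adjusted p = 0.19) in the DMSO group. The first was lost without control replicate 1, at 1.32 with an adjusted p of 0.099, without GSK2830371 replicate 2, at 1.91 with an adjusted p of 0.055, and without GSK2830371 replicate 5, at 1.84 with an adjusted p of 0.059. It was also lost among Xist-positive libraries, at 1.97 with an adjusted p of 0.071, and at 31 days or fewer, at 2.26 with an adjusted p of 0.079. Over all alternatives its adjusted p ran from 0.012 to 0.099.

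Between GSK2830371 and DMSO, which asks what the inhibitor changed in the i-TERTci kidney, no member passed; 3 had an unadjusted p under 0.05, Col4a6, Col16a1 and Col23a1, all 3 higher with GSK2830371. Over all 18810 genes tested none passed by limma or edgeR, DESeq2 called 1, and 800 had an unadjusted limma p under 0.05. No member passed by edgeR, DESeq2 or voom either. The log2 difference was 0.54 (95% interval -0.27 to 1.36, adjusted p = 0.99) for Col1a2, 0.77 (95% interval -0.72 to 2.26, adjusted p = 0.99) for Col3a1 and 0.30 (95% interval -0.38 to 0.99, adjusted p = 0.99) for Col12a1. For Col18a1 it was 0.27 (95% interval -0.28 to 0.82, adjusted p = 0.99), and for Col6a6 -0.69 (95% interval -2.65 to 1.27, adjusted p = 0.99). Of the fibrillar members, only 5 chosen ones were followed under the alternatives of this comparison. For all 5, DMSO replicate 2, 1 of the 2 Xist-positive DMSO libraries, was the highest of the DMSO group. Among the Xist-positive libraries alone, 2 with DMSO (29 and 31 days) and 3 with GSK2830371 (all 49 days), these 5 differences were negative: Col1a1 was at -0.76 with an adjusted p of 1.0, Col1a2 at -0.19 with an adjusted p of 1.0, Col3a1 at -0.59 with an adjusted p of 1.0, Col5a1 at -0.78 with an adjusted p of 1.0 and Col5a2 at -0.42 with an adjusted p of 1.0.

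**Figure D3:**
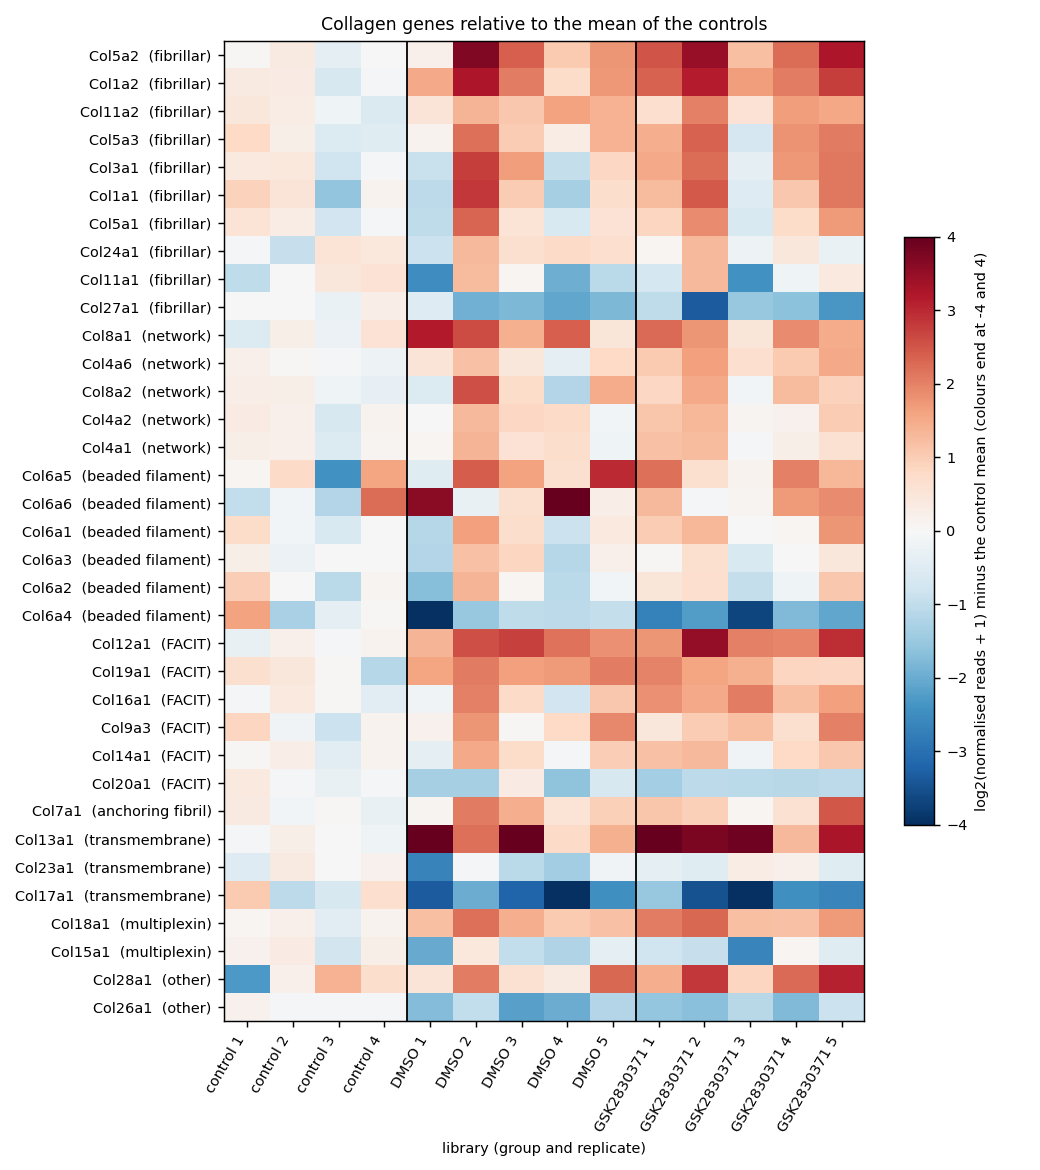
Log2(normalised reads + 1) of each tested member minus the mean of the 4 controls (colour), by library (columns) and class (rows). DMSO replicate 2, GSK2830371 replicate 2 and GSK2830371 replicate 5 are red for most fibrillar and type VI chains, and DMSO replicate 1, DMSO replicate 4 and GSK2830371 replicate 3 are the palest or blue.

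Much of the spread within the i-TERTci groups was shared between members. For 9 interstitial chains picked after their values were seen (Col1a1, Col1a2, Col3a1, Col5a1, Col5a2, Col5a3, Col6a1, Col6a2 and Col6a3), DMSO replicate 1, DMSO replicate 4 and GSK2830371 replicate 3 were the 3 lowest of the 10 i-TERTci libraries for all 9. DMSO replicate 2 and GSK2830371 replicate 2 were among the 3 highest for 9 of 9, and GSK2830371 replicate 5 for 8 of 9. Over all 35 tested members, DMSO replicate 2 was among the 3 highest for 27 and DMSO replicate 1 among the 3 lowest for 27. Members share their libraries, so these counts describe libraries and carry no test. Of the low libraries, DMSO replicates 1 and 4 were Xist-negative and GSK2830371 replicate 3 was Xist-positive. Of the high ones, DMSO replicate 2 and GSK2830371 replicate 2 were Xist-positive and GSK2830371 replicate 5 was Xist-negative. The part of sex in this spread was not tested.

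Fibroblast and mural cell markers were set beside the interstitial chains, since fibroblasts make most of these. Of 17 markers tested, 1 rose and 2 fell in the DMSO group, and 3 rose and 1 fell in the GSK2830371 group. Beside them, 25.2% of all genes rose and 23.1% fell in the first, and 24.3% and 22.1% in the second. The median log2 change over the 17 was -0.19 in the DMSO group and 0.21 in the GSK2830371 group. Pdgfra, a receptor of fibroblasts, had log2 changes of 0.56 ± 0.31 (SE, adjusted p = 0.14) and 1.08 ± 0.31 (SE, adjusted p = 0.0095), and Pi16, of adventitial fibroblasts, of 1.05 ± 0.27 (SE, adjusted p = 0.0055) and 1.26 ± 0.27 (SE, adjusted p = 0.0017). Thy1, a surface protein of fibroblasts and other cells, was at -2.12 ± 0.62 (SE, adjusted p = 0.011) and -1.99 ± 0.62 (SE, adjusted p = 0.016), and Des, the muscle filament desmin, at -0.87 ± 0.33 (SE, adjusted p = 0.041) and -0.54 ± 0.33 (SE, adjusted p = 0.2). The summed level of the list was 34229 to 50984 in the controls, 35612 to 56933 in the DMSO group and 45416 to 66060 in the GSK2830371 group. In libraries high for the 9 chains it was 56933 (DMSO replicate 2), 55644 (GSK2830371 replicate 2) and 45416 (GSK2830371 replicate 5, the lowest of its group). In those low for the 9 chains it was 45796 (DMSO replicate 1), 47198 (DMSO replicate 4) and 66060 (GSK2830371 replicate 3). DMSO replicates 3 and 5 had 35612 and 39057. S100a4 was under 10 in every library. The part of these cells in the collagen results was not tested.

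Macrophage markers had higher summed levels in the i-TERTci libraries high for the 9 interstitial chains than in those low for them. Their summed level was 8067 to 11975 in the controls. It was 38481 in DMSO replicate 2, 36221 in GSK2830371 replicate 2 and 30547 in GSK2830371 replicate 5. In DMSO replicate 1, DMSO replicate 4 and GSK2830371 replicate 3 it was 13929, 7738 and 12330. DMSO replicates 3 and 5 had 29782 and 24522, and GSK2830371 replicates 1 and 4 had 22972 and 16867. Of 9 markers, 4 rose and 1 fell in the DMSO group, and 4 rose and none fell in the GSK2830371 group. Beside them, 25.2% of all genes rose and 23.1% fell in the first, and 24.3% and 22.1% in the second. Adgre1, the F4/80 antigen, was at 0.85 ± 0.50 (SE, adjusted p = 0.17) and 0.93 ± 0.50 (SE, adjusted p = 0.14), and Itgam, an integrin of macrophages and neutrophils, at 3.46 ± 0.54 (SE, adjusted p = 1.4e-04) and 3.30 ± 0.54 (SE, adjusted p = 2.2e-04). Their part in the collagen results was not tested.

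Markers of other cell types were counted in the same way. Over all genes tested, 25.2% rose and 23.1% fell in the DMSO group, 48.3% in all. In the GSK2830371 group 24.3% rose and 22.1% fell, 46.3% in all. Of 10 proximal tubule markers 5 fell in each comparison, and of 10 markers of the distal nephron and duct 5 fell in each. Of 8 podocyte markers 3 fell in each, and none of these 3 lists had a riser. Of 6 parietal epithelial markers 3 rose and 1 fell in the DMSO group and 3 rose in the GSK2830371 group, and all 9 neutrophil markers rose in each. Of 6 adipocyte markers 2 fell in the DMSO group and none passed in the GSK2830371 group, where replicate 4 had a summed level of 17309 and the other 4 libraries 1799 to 2365. Their part in the collagen results was not tested.

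For chains of types I, V and VI that share a trimer, the ratio of one to the other differed between libraries more than the 1.46-fold of Col4a2 to Col4a1 given above. The ratio of Col5a2 to Col5a1 reads was 0.201 to 0.363 in the controls, 0.627 to 1.0 in the DMSO group and 0.794 to 0.980 in the GSK2830371 group, with no overlap with the controls. The ratio of Col1a2 to Col1a1 was 0.560, 0.714, 1.57 and 0.713 in control replicates 1 to 4, 1.08 to 4.87 in the DMSO group and 1.29 to 3.76 in the GSK2830371 group, so that control replicate 3 overlapped both. The 3 highest of these, 4.87, 3.43 and 3.76, were in DMSO replicates 1 and 4 and GSK2830371 replicate 3, the libraries low for both chains. The ratio of Col6a2 to Col6a1 went the other way: the control mean was 0.951 ± 0.184 (SD, n = 4), the DMSO mean 0.698 ± 0.087 (SD, n = 5) and the GSK2830371 mean 0.619 ± 0.105 (SD, n = 5), with overlap at control replicate 3. These pairs were chosen after their values were seen, and the ratios are given with no test.

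**Figure D4:**
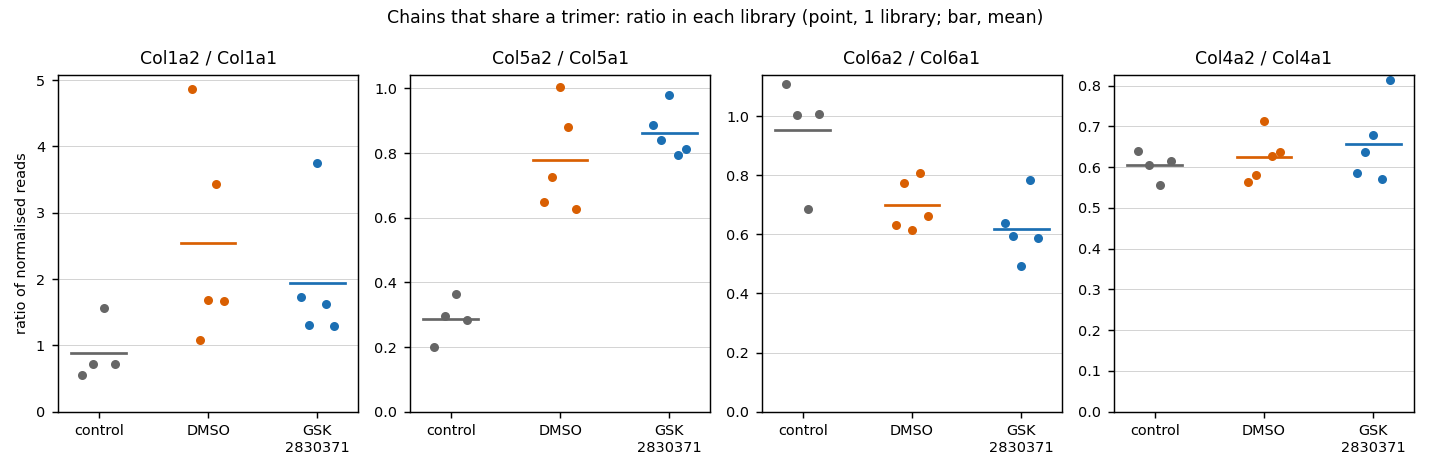
Ratio of normalised reads of 2 chains of 1 collagen type (y axis, linear from 0) in each library, by group; bars are means. Col5a2 / Col5a1 separates the controls (0.201 to 0.363) from both i-TERTci groups, while Col4a2 / Col4a1 stays between 0.557 and 0.814.

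The genes that make, cut, link and break collagens were followed in 7 lists of 79 genes, of which 76 could be tested. In all, 24 rose and 6 fell in the DMSO group, with a median log2 change of 0.21, and 26 rose and 6 fell in the GSK2830371 group, with a median of 0.50. Between the treated groups none passed, and 3 had an unadjusted p under 0.05. As shares of the 76, 31.6% rose and 7.89% fell in the DMSO group, 39.5% in all, beside 25.2%, 23.1% and 48.3% of all genes tested. In the GSK2830371 group 34.2% rose and 7.89% fell, 42.1% in all, beside 24.3%, 22.1% and 46.3%.

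Enzymes that modify prolines and lysines of new chains rose in 8 of 15 cases and fell in 1 in the DMSO group, and 9 and 1 in the GSK2830371 group. Ppib, the proline isomerase cyclophilin B of the 3-hydroxylation complex, had 7415 ± 1341 (SD, n = 4) normalised reads in the controls, 21602 ± 5807 (n = 5) in the DMSO group, 24444 ± 4425 (n = 5) in the GSK2830371 group, and log2 changes of 1.52 ± 0.21 (SE, adjusted p = 4.9e-05) and 1.72 ± 0.21 (SE, adjusted p = 1.8e-05). P3h2, which 3-hydroxylates prolines mainly of basement membrane collagens, fell, with 18291 ± 2755 (SD, n = 4) normalised reads in the controls, 5428 ± 1615 (n = 5) in the DMSO group, 5583 ± 2234 (n = 5) in the GSK2830371 group and log2 changes of -1.79 ± 0.27 (SE, adjusted p = 9.9e-05) and -1.79 ± 0.27 (SE, adjusted p = 1.1e-04). Of 13 folding and export genes, 6 rose and 2 fell in each comparison. Fkbp14, a proline isomerase of the endoplasmic reticulum, was at 1.35 ± 0.17 (SE, adjusted p = 2.4e-05) and 1.58 ± 0.17 (SE, adjusted p = 6.8e-06), and Creb3l1, a transcription factor that promotes collagen secretion in bone, at -1.92 ± 0.27 (SE, adjusted p = 4.7e-05) and -1.79 ± 0.27 (SE, adjusted p = 9.0e-05).

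Outside the cell, Pcolce, which speeds removal of the C-propeptide of fibrillar chains, was the 1 of 9 genes of propeptide removal that rose in the DMSO group, at 1.02 ± 0.18 (SE, adjusted p = 3.5e-04), and 2 rose in the GSK2830371 group, where it was at 1.20 ± 0.18 (SE, adjusted p = 1.1e-04). Lox, which oxidises lysines so that fibrils crosslink, was the 1 of 6 crosslinking genes that rose in each comparison. It had 353 ± 94.6 (SD, n = 4) normalised reads in the controls, 2485 ± 1513 (n = 5) in the DMSO group, 4861 ± 4331 (n = 5) in the GSK2830371 group, with log2 changes of 2.62 ± 0.58 (SE, adjusted p = 0.0022) and 3.39 ± 0.58 (SE, adjusted p = 4.0e-04). Of 13 fibril assembly and binding genes, 1 rose and 3 fell in the DMSO group and 2 rose and 1 fell in the GSK2830371 group. Sparc, a matrix protein that binds collagen, was at 1.21 ± 0.28 (SE, adjusted p = 0.0025) and 1.47 ± 0.28 (SE, adjusted p = 6.6e-04), and Prelp, a small leucine-rich proteoglycan, at -1.69 ± 0.34 (SE, adjusted p = 9.0e-04) and -1.46 ± 0.34 (SE, adjusted p = 0.0028).

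Among 11 collagen receptors, 3 rose and none fell in the DMSO group, and 2 rose and 1 fell in the GSK2830371 group. Itgb1, the beta chain shared by the collagen-binding integrins, had 8305 ± 1363 (SD, n = 4) normalised reads in the controls, 33195 ± 7170.1 (n = 5) in the DMSO group, 35489.8 ± 11182 (n = 5) in the GSK2830371 group, and log2 changes of 1.98 ± 0.23 (SE, adjusted p = 9.3e-06) and 2.06 ± 0.23 (SE, adjusted p = 7.1e-06). Of 9 genes of collagen breakdown, 4 rose and none fell in the DMSO group, and 4 rose and 1 fell in the GSK2830371 group. Mmp9, a gelatinase of neutrophils and macrophages, was at 3.89 ± 0.64 (SE, adjusted p = 2.0e-04) and 3.51 ± 0.64 (SE, adjusted p = 5.0e-04). Mmp8, the neutrophil collagenase, is also on the neutrophil marker list, whose summed level was 30.6 to 121 in the controls, 770.0 to 29571 in the DMSO group and 374 to 19639 in the GSK2830371 group. The part of neutrophils in these results was not tested.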

How the data were processed

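RNA of whole kidneys from 14 libraries was analysed from 2 deposited tables, 1 with the DMSO group and 1 with the GSK2830371 group, each also holding the 4 controls. Per the submitters' processing notes, FastQC, Trimmomatic, STAR and DESeq2 were used with build mm10; not given in the sources used here are tool versions, the read counter, the annotation and whether strand was used. The deposited signal values are read counts that the authors divided by 1 size factor per library, and within a tolerance of 0.001 all of them (100.0%) came out as whole reads when divided by the value of 1 read in their library; the control reads were equal in both tables. No column of another sample was present. Genes in both tables were normalised together with median-of-ratios size factors. As the values were deposited normalised, limma 3.58.1 (trend, robust, R 4.3.3) was fitted to log2(normalised reads + 1) of all 14 libraries by group, after edgeR's filterByExpr, two-sided, with Benjamini-Hochberg adjustment over 18810 genes and a threshold of 0.05. The fit was tested on simulated data. Alternatives were edgeR 4.0.16 and DESeq2 1.42.0 on the recovered reads, voom, other scalings, filters and pseudocounts, other sample sets, a replicate block and leaving out each library. Exon lengths and positions came from GENCODE M21 (GRCm38), and promoter windows from RefSeq (GRCm38.p6), where 32 of 40 members matched by symbol. Members, classes, companion and marker lists were chosen with earlier results of these data known. Each member is named, and those most abundant per kilobase in their class or past the threshold in any comparison are given by library. From companion lists the gene with the smallest p in each direction in DMSO against control is named, and from marker lists the first gene and the one with the smallest p. A few others (Comp, Sp7, S100a4, Thy1, Des, Mmp8, Tcfl5) were named after their values were seen.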

Additional observations from a re-analysis of the deposited data

Results flagged for a closer look

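Of 105 groups of 4 or 5 libraries examined, 1 for each tested member and group, 9 held a library far from the others by Dixon's criterion. The criterion was applied to normalised reads without logs. Its rate of about 1 in 20 groups holds for normally distributed values, which was not checked here. Members also share their libraries, so the 9 cannot be set against that rate and carry no test. Of the 9, 3 were in DMSO replicate 2, with 47840 normalised reads of Col1a1 (the other 4 libraries 2679 to 13630), 7026 of Col5a1 (690.4 to 2121) and 58532 of Col18a1 (26004 to 34575). DMSO replicate 1 stood high for Col27a1, at 5712 (1934 to 2355). Among the GSK2830371 libraries, replicate 5 stood high for Col7a1, at 728 (136 to 279.5), and replicate 1 low for Col20a1, at 59.7 (71.0 to 74.5). Among the controls, replicate 4 stood high for Col6a6, at 682 (63.2 to 133), replicate 3 low for Col15a1, at 1975 (3732 to 4094), and replicate 1 high for Col26a1, at 613 (513 to 524).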

How the results depend on the processing

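Of 29 calls of single members against control, 19 held under every alternative run and 10 were lost under at least 1; over 664 values 618 kept their call, 46 lost it and 0 changed sign. The members raised in the DMSO group numbered 13 among Xist-positive libraries (8 in the fit as reported). Those lowered numbered 3 (against 5) with scaling by total reads outside mitochondrial genes, with only the groups compared, at 31 days or fewer and with Xist as a covariate, and in the GSK2830371 group 3 (against 5) at 31 days or fewer. Leaving out 1 library gave 8 to 10 raised and 3 to 6 lowered in the DMSO group, the 3 without control replicate 4, DMSO replicate 1 or DMSO replicate 4, and 10 to 16 raised and 4 to 5 lowered in the GSK2830371 group. Between the treated groups DESeq2 called 1 gene and the Xist-positive libraries 2. On the recovered reads edgeR called 8892 and 8496 genes and DESeq2 9534 and 9118, against 9079 and 8716. Scaling outside mitochondrial genes moved the median of all genes from 0.03 to 0.15 in the DMSO and from 0.01 to 0.12 in the GSK2830371 comparison. The replicate numbers are shared between groups only as numbers: 4 of 13 same-numbered pairs had correlations over 0.1, from -0.06 to 0.34. With a replicate block, 8 members rose and 5 fell in the DMSO group and 13 rose and 5 fell in the GSK2830371 group, the added ones Col4a1 at 0.73 and Col5a3 at 1.27, and 9589 and 9248 genes were called.

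None of the values that changed sign had passed in the comparison it belongs to, although Col1a2, Col5a2 and Col23a1 passed in others, and the cause was not tested. In the DMSO comparison among Xist-positive libraries, Col11a1 was at 0.10, Col15a1 at 0.0087, Col6a2 at 0.62, Col6a3 at 0.69 and Col6a6 at -0.0054. Leaving out 1 library, Col1a1 ranged from -0.17 (without DMSO replicate 2) to 0.87, negative also without control replicate 3 at -0.09, and Col5a1 from -0.13 (without DMSO replicate 2) to 0.71. Col6a1 ranged from -0.24 (without DMSO replicate 2) to 0.46, negative also without control replicate 3 or DMSO replicate 3, and was at -0.0070 with the replicate block. Col6a2 ranged from -0.71 to 0.061 (without DMSO replicate 1), positive also without control replicate 1. Col6a3 ranged from -0.30 to 0.28 (without DMSO replicate 1), positive also without control replicate 1 or DMSO replicate 4, and was at 0.0048 with TMM scaling, 0.11 with scaling outside mitochondrial genes, 0.29 with edgeR, 0.28 with DESeq2, and 0.27 both at 31 days or fewer and with Xist as a covariate. In the GSK2830371 comparison Col11a1 was at 0.017 with edgeR and 0.014 with DESeq2 and ranged from -0.73 to 0.21 (without GSK2830371 replicate 3), and Col23a1 was at 0.016 among Xist-positive libraries and 0.25 with Xist as a covariate. Col24a1 ranged from -0.035 (without control replicate 2) to 0.45 and was at -0.10 at 31 days or fewer. Col6a2 ranged from -0.13 (without control replicate 3) to 0.55 and was at -0.15 among Xist-positive libraries, and without GSK2830371 replicate 2 Col6a3 was at -0.025. Between the treated groups, Xist-positive libraries gave -0.76 for Col1a1, -0.19 for Col1a2, -0.59 for Col3a1, -0.78 for Col5a1 and -0.42 for Col5a2. DMSO replicate 2, the highest of the DMSO group for each of these members, is 1 of the 2 DMSO libraries there. For this comparison the signs of only these members and of Col4a6, Col16a1 and Col23a1 were followed. Low counts limit Col19a1, Col28a1, Col6a4 and the 5 members not tested.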
